A study of Bos taurus with 34 samples.

Results

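The miRNAs bta-miR-486, bta-miR-451 and bta-miR-144 are 3 of the 800 mature bovine miRNA names counted in cell-free blood of dairy cows. All are known as miRNAs of red blood cells, and they were taken by name with earlier results of these data known. Small RNA libraries came from 11 cows whose endometrium was inflamed without visible disease (subclinical endometritis, SCE) and from 6 healthy cows. Status was set by endometrial cytology and biopsy, and blood was drawn early and late after calving, on day 25 and day 45 by the labels or 21 and 44 days postpartum by the design text. The groups used here were SCE cows at day 25 and at day 45 (11 libraries each), healthy cows at day 25 (5 libraries) and healthy cows at day 45 (6 libraries), with no treatment named for any of them. Breed and age were not used here. The samples are blood serum by the labels but plasma by the design text, and a cell-free sample holds no cells against which a cell type could be checked.

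Healthy cow 3 has no day-25 value, because the file given for it held the same bytes as its day-45 file, down to the title in the header, and was left out. The other 33 files gave totals of 678389 to 28872153 counts. Medians were 8454315 counts for SCE and 15570759 for healthy libraries at day 25, and 9354855 counts for SCE and 16939642 for healthy libraries at day 45. The smallest count of any of the 3 miRNAs in a library was 230, so counting error was small beside the differences between cows. In cell-free blood, fewer red blood cells releasing RNA and less RNA released per cell cannot be told apart.

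miR-451 and miR-144 are made together during red blood cell maturation from 1 primary transcript, under the erythroid factor GATA1. In mouse, miR-451 is matured by the slicer activity of Argonaute 2 and not by Dicer. It protects red blood cell precursors from oxidative stress through the 14-3-3 zeta gene, and human miR-144 targets NRF2, a regulator of antioxidant genes. miR-486 lies in the ankyrin gene ANK1, which codes for a red blood cell membrane protein, and is also made in striated muscle. In human plasma and serum, miR-451 and miR-486 increase when red blood cells break open during collection, and miR-23a, which changes little with such breakage, is the usual partner for comparison. In the RefSeq annotation of the ARS-UCD2.0 assembly, MIR451 and MIR144 were next to each other, with ERAL1 on the side of MIR451 and FLOT2 on the side of MIR144, and MIR486 lay inside the span of ANK1. That assembly differs from the build of the deposited data, and the table was used for names and neighbours only.

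miR-486 was a large part of every library, but the size of that part differed widely between cows. Values per library are shares, or counts per 1000000 counts (CPM), of the library's own total, before any scaling between libraries. At day 25, bta-miR-486 took 4.0% of counts in the lowest SCE library, 10.8% at the median and 79.0% in the highest, against 81.1%, 57.0%, 24.8%, 43.2% and 45.3% in healthy cows 1, 2, 4, 5 and 6. Of the 11 SCE libraries, 6 lay below every healthy library, at 4.0% to 10.8%, and the other 5 lay at 27.8% to 79.0%, within the healthy range. At day 45 its share was 3.95% in the lowest SCE library, 36.5% at the median and 52.1% in the highest, against 14.7%, 48.0% and 73.0% for the lowest, median and highest healthy library. Here 2 of 11 SCE libraries lay below every healthy library. The 95% Wilson interval of the highest SCE share at day 25 ran from 79.0% to 79.1% and covers counting error only.

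miR-451 was lower than miR-486 in every library, and its range was wide within each group. At day 25, bta-miR-451 stood at 2050 CPM in the lowest SCE library, 4977 at the median and 21584 in the highest, against 5953, 3871, 570, 16777 and 1188 CPM in healthy cows 1, 2, 4, 5 and 6. At day 45 the lowest, median and highest values were 748, 4723 and 15990 CPM in SCE libraries, against 852, 4651 and 11171 CPM in healthy libraries. The ranges overlapped at both days. At day 25, healthy cows 4 and 6 lay below every SCE library and 1 of 11 SCE libraries lay above every healthy library, and at day 45, 3 of 11 SCE libraries lay above and 1 below every healthy library. The place of miR-451 among all names in a library ran from 8 to 59.

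miR-144 was the scarcest of the 3. At day 25, bta-miR-144 had 37.2 CPM in the lowest SCE library, 120 at the median and 429 in the highest, against 56.2, 37.4, 30.9, 504 and 70.0 CPM in healthy cows 1, 2, 4, 5 and 6. At day 45 the lowest, median and highest values were 46.2, 97.8 and 438 CPM in SCE libraries, against 37.4, 130 and 460 CPM in healthy libraries. A single healthy cow, cow 5, stood far above its group at day 25, and the other 4 lay below the SCE median. Within every pair of the 4 groups the ranges of each of the 3 miRNAs overlapped. How often the ranges of other miRNAs overlapped was not examined, so this cannot be called a trait of the 3.

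By median CPM, miR-486 was highest in healthy cows at day 45, followed by healthy cows at day 25, SCE cows at day 45 and SCE cows at day 25. For miR-451 the order of medians was SCE at day 25, SCE at day 45, healthy at day 45 and healthy at day 25, and for miR-144 it was healthy at day 45, SCE at day 25, SCE at day 45 and healthy at day 25. The ranges of all neighbours in these orders overlapped.

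**Figure D1:**
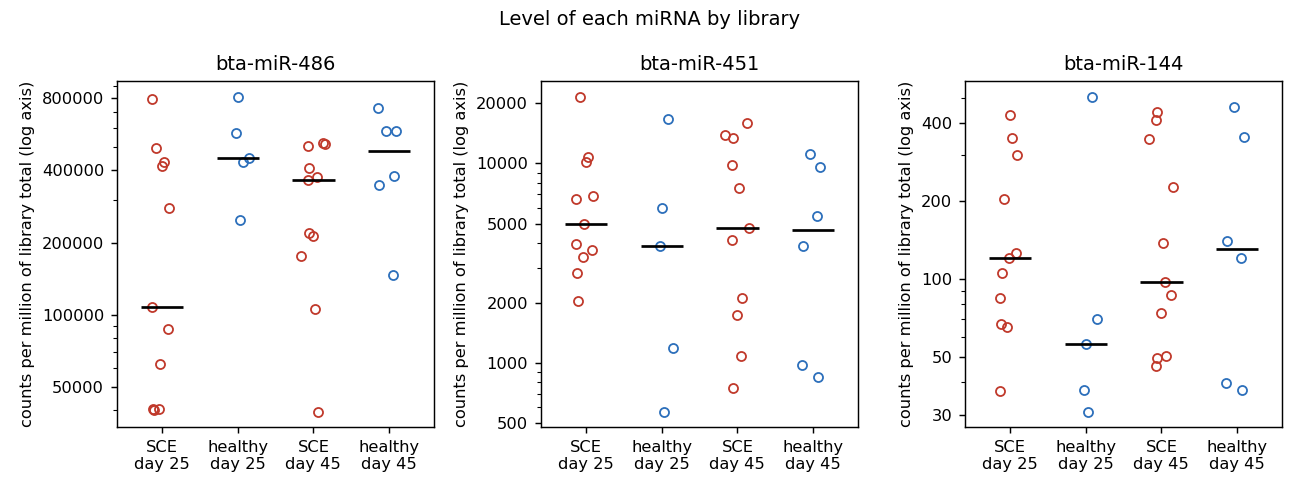
CPM of library total (log axis) of the 3 miRNAs in each library, with 1 open circle per library and the group median as a bar. At day 25, 6 of 11 SCE libraries lie below all 5 healthy libraries for miR-486, at 4.0% to 10.8% of counts, while the groups overlap for miR-451 and miR-144.

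Levels were compared between statuses with edgeR's quasi-likelihood test after TMM scaling, which sets libraries to a common level over most miRNAs. Each comparison computed its TMM factors anew from its own libraries. Computed over all 33 libraries together, the factors at day 25 had a median of 1.37 in SCE and 0.724 in healthy libraries. At day 45 these medians were 1.11 in SCE and 0.688 in healthy libraries. None of the 3 miRNAs passed an adjusted p of 0.05 in any comparison with all cows in.

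At day 25, miR-486 had the lowest value of the 3 in SCE relative to healthy cows, a log2 fold change of -1.54 (SE 0.85) with a 95% interval from -3.30 to 0.22 (edgeR adjusted p = 0.296). miR-451 stood at -0.44 with SE 0.65 (edgeR adjusted p = 0.741), but at 0.30 with library totals alone and at 0.050 without healthy cow 1. miR-144 stood at -0.30 with SE 0.62 (edgeR adjusted p = 0.824), but at 0.30 with library totals alone and at 0.57 without healthy cow 5. Over all 372 miRNAs tested, 1 was called, or 0.269%, and 0 of the 3. The 1 called was miR-425-3p, named here after its value was seen. At an unadjusted p under 0.05 stood 0 of the 3 by edgeR and by DESeq2, against 75 of the 372 by edgeR. The miR-486 value depended on single cows: it was -2.46 without SCE cow 7, whose share was the highest of its group (edgeR adjusted p = 0.065), and -0.88 without healthy cow 1. It was -0.99 with library totals alone.

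At day 45, miR-486 again had the lowest value, a log2 fold change of -1.37 (SE 0.56) with a 95% interval from -2.52 to -0.22 (edgeR adjusted p = 0.460). It was place 15 of 382 by p, with an unadjusted edgeR p of 0.021. With library totals alone it was -0.56 (unadjusted edgeR p = 0.248), and in 1 fit over all groups -1.42 (unadjusted edgeR p = 0.058). miR-144 was at -0.78 with SE 0.58 (edgeR adjusted p = 0.668), but at -0.11 with library totals alone and at -0.32 without healthy cow 4. miR-451 was at -0.27 with SE 0.61 (edgeR adjusted p = 0.920), but at 0.36 with library totals alone, at 0.23 without healthy cow 1 and at 0.19 without healthy cow 4. Called were 0 of 382 miRNAs (0%), and 39 had an unadjusted p under 0.05 by edgeR, miR-486 among them. DESeq2 called 1 miRNA at this day, the lymphocyte miRNA miR-150. The miR-486 value ran from -1.62 without healthy cow 6 to -0.78 without healthy cow 2.

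With the counts of each cow summed over its samplings, miR-486 had a log2 fold change of -1.44 (SE 0.48) with a 95% interval from -2.43 to -0.46 (edgeR adjusted p = 0.191). It was place 12 of 418 by p, with an unadjusted edgeR p of 0.0057. Healthy cow 3 entered the summed comparisons, here and for the ratios below, with its day-45 library only. Raw counts were summed, so the deeper library of a cow weighs more in its sum. Over the 418 miRNAs tested 1 was called (miR-425-3p), or 0.239%, and 0 of the 3. DESeq2 gave an adjusted p of 0.052 for miR-486. Leaving out SCE cow 7 alone brought a call of miR-486, at -1.75 (edgeR adjusted p = 0.042), in a fit that called 10 of 419 miRNAs. With library totals alone it was -0.76, a setting under which the median of all miRNAs moved to 0.77 and so away from 0. miR-144 was at -0.75 with SE 0.51 (edgeR adjusted p = 0.420) and miR-451 at -0.55 with SE 0.48 (edgeR adjusted p = 0.547). Without healthy cow 4 miR-144 was at -0.37, and without healthy cow 1 miR-451 was at -0.21. With library totals alone miR-144 was at 0.023 and miR-451 at 0.25, so the direction of both depended on the scaling, while miR-486 was lower in SCE cows under each scaling tried for these status comparisons.

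**Figure D2:**
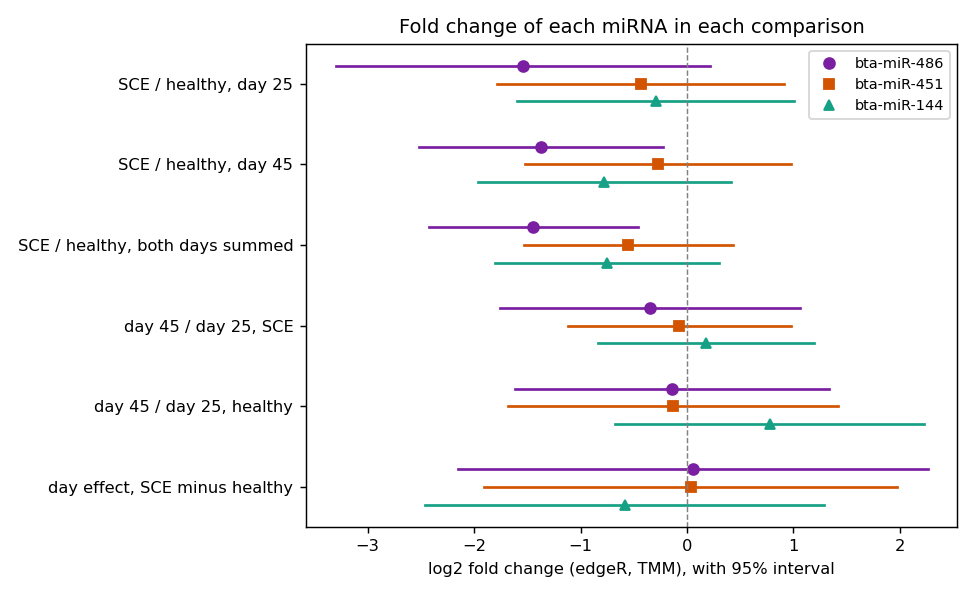
Log2 fold change of each miRNA in each comparison (edgeR, TMM scaling), with the 95% interval as a line. The interval of miR-486 lies below 0 at day 45 (-2.52 to -0.22) and with both days summed (-2.43 to -0.46), and all other intervals cross 0. Healthy cow 3 entered the summed comparison with day 45 only. No value passed adjustment over all miRNAs.

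The ratio of 2 miRNAs within a library does not depend on how libraries are scaled. Reads of different miRNAs are captured with different efficiency, so ratios were read between cows and not as ratios of molecules. Exact permutation tests, two-sided, were adjusted over 15 tests, from 3 ratios in 5 comparisons.

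At day 25, 1 read of miR-451 came with 11.8 to 199 reads of miR-486 in SCE libraries (median 22.9), against 25.7 to 435 in healthy libraries (median 147). Of the 11 SCE libraries, 7 had more miR-451 per miR-486 than every healthy library. SCE cow 7 and healthy cow 5 went against their groups. The mean log2 ratio of miR-451 over miR-486 was -4.74 ± 1.17 in SCE cows (SD, n = 11) and -7.26 ± 1.63 in healthy cows (SD, n = 5). The difference was 2.52 with SE 0.81 (exact permutation p = 0.0043, adjusted p = 0.065). It ran from 2.15 to 3.17 when each cow was left out, and passed adjustment without healthy cow 5 (3.17, exact permutation adjusted p = 0.027) or SCE cow 7 (2.81, exact permutation adjusted p = 0.015).

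miR-144 over miR-486 gave a similar picture at day 25. The mean log2 ratio was -10.1 ± 1.59 in SCE cows (SD, n = 11) and -12.6 ± 1.69 in healthy cows (SD, n = 5), a difference of 2.48 with SE 0.89 (exact permutation p = 0.013, adjusted p = 0.096). Without healthy cow 5 it was 3.20 (exact permutation adjusted p = 0.027) and without SCE cow 7 it was 2.90 (exact permutation adjusted p = 0.015). Both ratios share miR-486 as denominator and are not independent of each other. With library totals alone at day 25, miR-486 had a log2 fold change of -0.99, and miR-451 and miR-144 of 0.30 each. The median of all miRNAs was 0.88 on that scale, so a higher value over miR-486 in SCE cows was not particular to these 2 miRNAs. Ratios of other miRNAs over miR-486 were not tested.

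At day 45 no ratio involving miR-486 differed beyond the spread between cows. miR-451 over miR-486 was -5.83 ± 1.66 in SCE cows (SD, n = 11) and -6.87 ± 1.89 in healthy cows (SD, n = 6), a difference of 1.04 with SE 0.92 (exact permutation p = 0.254, adjusted p = 0.476). miR-144 over miR-486 differed by 0.71 with SE 0.79 (exact permutation p = 0.349, adjusted p = 0.582). Without healthy cow 2 these differences were 0.51 and 0.22. With both days summed the differences were 1.32 for miR-451 over miR-486 (exact permutation p = 0.051, adjusted p = 0.255) and 1.12 for miR-144 over miR-486 (exact permutation p = 0.122, adjusted p = 0.356), the second at 0.69 without healthy cow 2. Whether the status difference of a ratio itself differed between the days was not tested.

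The ratio of the 2 miRNAs of 1 transcript, miR-144 over miR-451, showed no difference between statuses beyond the spread. It was -5.40 ± 0.88 in SCE cows (SD, n = 11) and -5.35 ± 1.29 in healthy cows (SD, n = 5) at day 25, a difference of -0.044 with SE 0.64 (exact permutation p = 0.938, adjusted p = 0.938). At day 45 it was -5.12 ± 1.16 in SCE cows (SD, n = 11) and -4.79 ± 0.36 in healthy cows (SD, n = 6), a difference of -0.33 with SE 0.38 (exact permutation p = 0.538, adjusted p = 0.636). Reads of miR-451 per read of miR-144 ran from 11.1 to 183 over all libraries. Each of these p-values misses the threshold and does not show that the statuses are alike.

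**Figure D3:**
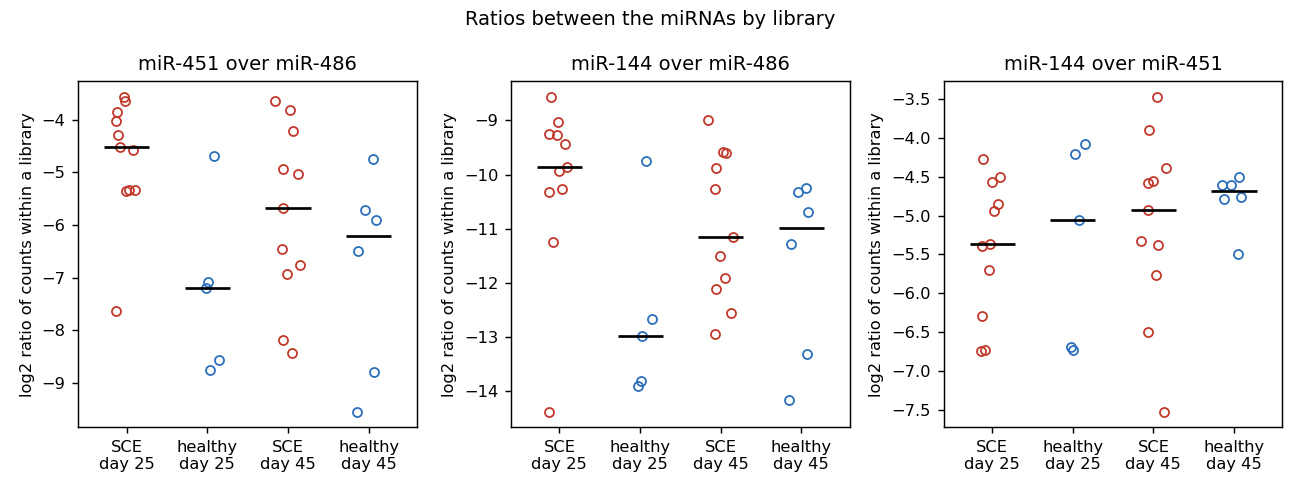
Log2 ratio of the counts of 2 miRNAs within a library, with 1 open circle per library and the group median as a bar. At day 25, miR-451 over miR-486 is higher in 7 of 11 SCE libraries than in every healthy library, while miR-144 over miR-451 has a mean of -5.40 in SCE and -5.35 in healthy libraries.

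Across cows, miR-451 and miR-144 varied together, with r between 0.68 and 0.97 in the 3 groups that could be examined. Levels were TMM-scaled log2 CPM, 12 relations were tested, and the 2 miRNAs of a point share the library and its scaling. For miR-451 and miR-144, Pearson's r was 0.75 in SCE cows at day 25 (n = 11, permutation p = 0.010, adjusted p = 0.040) and Spearman's rho 0.76 (permutation p = 0.0084, adjusted p = 0.033). In SCE cows at day 45, r was 0.68 (n = 11, permutation p = 0.025, adjusted p = 0.060) and rho 0.78 (permutation p = 0.0064, adjusted p = 0.033). In healthy cows at day 45, r was 0.97 (n = 6, exact permutation p = 0.0042, adjusted p = 0.025) and rho 0.94 (exact permutation p = 0.017, adjusted p = 0.040). Without the 2 cows farthest from the median of miR-451, r was 0.81, 0.70 and 0.95 in these groups, and with library totals alone it was 0.66, 0.68 and 0.97. The 0.95 comes from the healthy cows left when 2 of 6 were taken out, too few to be read. Healthy cows at day 25 were too few for a correlation.

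miR-486 and miR-451 had r = 0.90 in SCE cows at day 25 (n = 11, permutation p = 4.6e-04, adjusted p = 0.0055) and rho = 0.91 (permutation p = 3.0e-04, adjusted p = 0.0036). The 11 cows left a gap in miR-486 between 10.8% and 27.8% of counts, with 6 cows below and 5 above it, and a relation over all 11 includes that gap. Within the 6 cows below the gap, a subset taken after the data were seen, r was 0.81 (exact permutation p = 0.047) and rho 0.77 (exact permutation p = 0.103), outside the adjustment. Without the 2 cows farthest from the median, r over the rest was 0.96, and with library totals alone it was 0.72 over all 11. At day 45 the same pair had r = 0.39 in SCE cows (n = 11, permutation p = 0.242, adjusted p = 0.415) and rho = 0.55 (permutation p = 0.086, adjusted p = 0.147), and r was 0.35 without the 2 farthest cows and 0.28 with library totals alone. In healthy cows at day 45, r was 0.19 (n = 6, exact permutation p = 0.758, adjusted p = 0.777) and rho 0.26 (exact permutation p = 0.658, adjusted p = 0.658). Without the 2 of these 6 cows farthest from the median r was 0.90, but too few cows are then left to read it. Over all 6, r was -0.10 with library totals alone.

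For miR-486 and miR-144, r was 0.69 in SCE cows at day 25 (n = 11, permutation p = 0.022, adjusted p = 0.060) and rho 0.73 (permutation p = 0.014, adjusted p = 0.040), and within the 6 cows below the gap r was 0.51 (exact permutation p = 0.287). At day 45, r was 0.52 in SCE cows (n = 11, permutation p = 0.09996, adjusted p = 0.1999), with rho 0.58 (permutation p = 0.067, adjusted p = 0.133). In healthy cows at day 45, r was 0.37 (n = 6, exact permutation p = 0.485, adjusted p = 0.646), with rho 0.54 (exact permutation p = 0.297, adjusted p = 0.446). Without the 2 cows farthest from the median of miR-486, r was 0.96, 0.30 and 0.91 in SCE cows at day 25, SCE cows at day 45 and healthy cows at day 45, and with library totals alone it was 0.40, 0.37 and 0.093. The 0.91 comes from the healthy cows left when 2 of 6 were taken out, too few to be read.

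**Figure D4:**
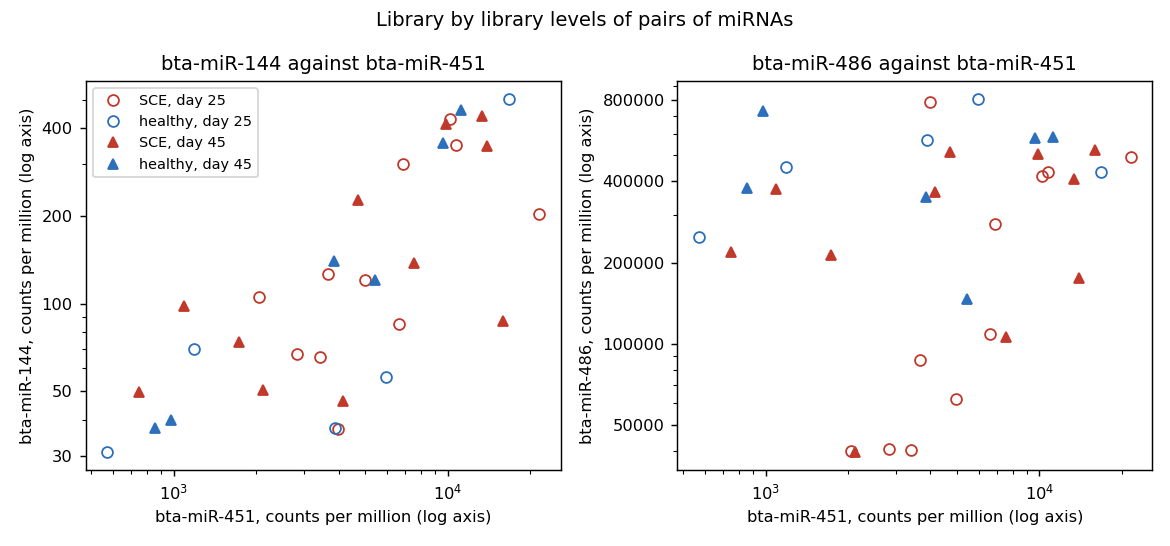
Levels of miR-144 (left) and miR-486 (right) against miR-451 in CPM of library total (log axes), with 1 symbol per library. miR-144 is higher where miR-451 is higher (r of 0.68 to 0.97 on TMM-scaled values in SCE cows at both days and healthy cows at day 45), while libraries with little miR-451 span a wide range of miR-486.

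Between samplings of the same cow the 3 miRNAs moved in both directions. In SCE cows, miR-486 was higher at day 45 than at day 25 in 8 of 11 cows after TMM scaling, and its share in cow 12 was 8.23 times higher at day 45, while in cow 9 it was 7.05 times lower. edgeR gave a log2 fold change of -0.35 with SE 0.69 for day 45 against day 25 without regard to pairing (edgeR adjusted p = 0.920). The value turned to 1.002 with the cow as a block (edgeR adjusted p = 0.687), to 0.86 without SCE cow 7 and to 0.30 with library totals alone, so no direction can be given. miR-451 was at -0.07 with SE 0.51 (edgeR adjusted p = 0.945), with values from 19.8 times lower at day 45 in cow 8 to 4.36 times higher in cow 15. miR-144 was at 0.18 with SE 0.49 (edgeR adjusted p = 0.933) and higher at day 45 in 6 of 11 cows. edgeR called 0 of the 346 miRNAs (0%), where 14 had an unadjusted p under 0.05, and DESeq2 called 0.

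In the 5 healthy cows with both samplings, cow 4 moved most for miR-451, 19.6 times higher at day 45 than at day 25, and for miR-144, 14.9 times higher. For miR-486 cow 6 moved most, 3.09 times lower at day 45, while cow 4 was 2.36 times higher. Cow 5 went the other way, with miR-451 4.35 times and miR-144 3.6 times lower at day 45. Log2 fold changes for day 45 against day 25 over all healthy libraries were -0.14 with SE 0.71 for miR-486, -0.13 with SE 0.74 for miR-451 and 0.78 with SE 0.70 for miR-144, with edgeR adjusted p = 0.9999 for each. With the cow as a block miR-451 turned to 0.21. The miR-144 value was 0.12 without cow 4 and 1.56 without cow 5. Out of 345 miRNAs edgeR called 0 (0%), where 10 had an unadjusted p under 0.05, and DESeq2 called 0. The 5 pairs could not give an exact permutation p below 0.0625 in the tests of ratios, and the lowest found was 0.25, for miR-144 over miR-486.

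In SCE cows the ratios between days were not shown to differ either. miR-451 over miR-486 was -5.83 ± 1.66 at day 45 and -4.74 ± 1.17 at day 25 (SD, n = 11 each), a difference of -1.09 with SE 0.62 (exact permutation p = 0.111, adjusted p = 0.356). miR-144 over miR-486 differed by -0.81 with SE 0.51 (exact permutation p = 0.143, adjusted p = 0.356) and miR-144 over miR-451 by 0.28 with SE 0.44 (exact permutation p = 0.546, adjusted p = 0.636). The day effect in SCE minus that in healthy cows was 0.06 with SE 1.09 for miR-486, 0.03 with SE 0.96 for miR-451 and -0.59 with SE 0.93 for miR-144 on the log2 scale, with edgeR adjusted p = 0.988 for each. With the cow as a block the value of miR-486 was 1.20 with SE 1.13 (edgeR adjusted p = 0.977), and with library totals alone 0.42. Neither edgeR, with 0 of 406 miRNAs (0%) and 7 at an unadjusted p under 0.05, nor DESeq2 made a call.

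No relation between the level of an SCE cow at day 25 and at day 45 was detected. r between the days was 0.16 for miR-486 (n = 11, permutation p = 0.644, adjusted p = 0.772), with rho 0.27 (permutation p = 0.418, adjusted p = 0.501). It was 0.095 for miR-451 (n = 11, permutation p = 0.777, adjusted p = 0.777), with rho 0.17 (permutation p = 0.617, adjusted p = 0.658). For miR-144, r was 0.34 (n = 11, permutation p = 0.304, adjusted p = 0.455), with rho 0.29 (permutation p = 0.386, adjusted p = 0.501). Without the 2 cows farthest from the median, r was 0.034 for miR-486, 0.18 for miR-451 and -0.43 for miR-144.

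**Figure D5:**
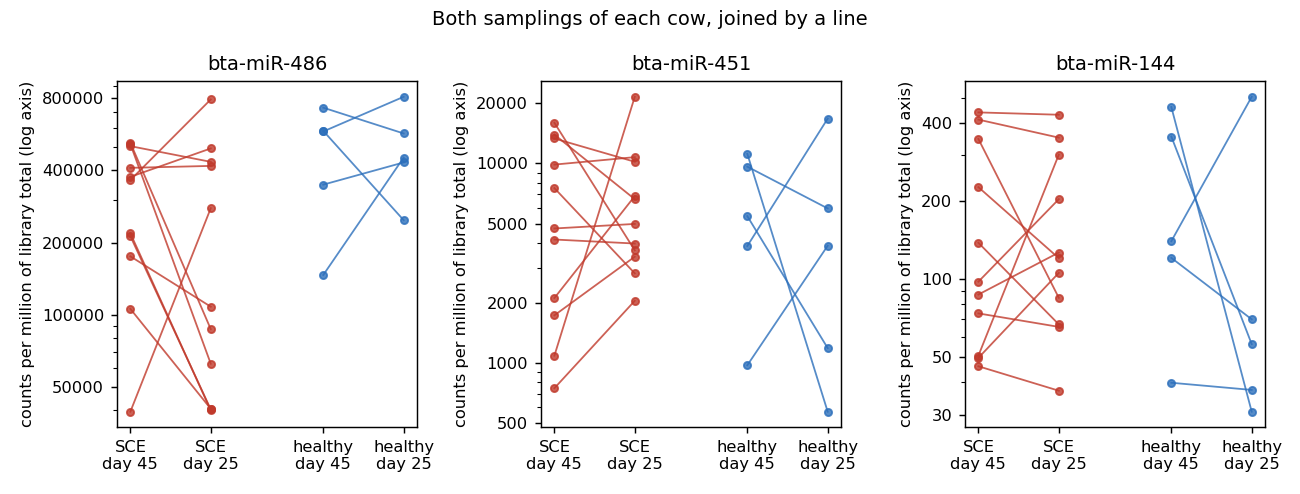
CPM of library total (log axis) at day 45 and day 25 of each cow with both samplings, joined by a line (11 SCE cows, 5 healthy cows). Lines cross in both directions, and the steepest in healthy cows is cow 4, 19.6 times higher for miR-451 at day 45 than at day 25.

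Over all 33 libraries and 406 miRNAs, the names with the most similar pattern to each of the 3 were listed by Pearson's r of TMM-scaled log2 CPM, as a description in which points share cows and scaling. miR-486 was closest to miR-25 (r = 0.94), followed by miR-146b (0.78), miR-92a (0.74), miR-11971 (0.74) and miR-2457 (0.74), while miR-144 was in place 37 and miR-451 in place 38. miR-451 was closest to miR-199b (r = 0.91), miR-16b (0.89), miR-2285bc (0.88), miR-2285cc (0.80) and miR-2457 (0.79), with miR-144 in place 7 (0.76) and miR-486 in place 59 (0.48). miR-144 was closest to miR-199b (r = 0.81), miR-6524 (0.78), miR-451 (0.76), miR-409a (0.66) and miR-2285bc (0.64), with miR-486 in place 33. Of these, miR-409a averaged 0.600 CPM and its values are sparse. With library totals alone miR-25 stayed in place 1 for miR-486 and miR-199b in place 1 for miR-451 and for miR-144, while miR-92a moved to place 53 for miR-486. On that scale miR-486 moved to place 189 for miR-451 and to place 180 for miR-144.

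A wider list of 22 miRNAs known from red blood cells, the 3 included, was described beside them. Of the 18 others tested at day 25, 8 had a higher and 10 a lower value in SCE than in healthy cows, and 0 were called, with a median log2 fold change of -0.23 beside -0.05 over all miRNAs tested. At day 45, 10 were higher and 8 lower, with a median of 0.02 beside 0.11, and with both days summed 9 were higher and 10 lower, with a median of -0.0033 beside 0.04. Of the 4 most abundant others, miR-25, processed from the same host gene as miR-93 and miR-106b, was at -1.19 with SE 0.57 at day 25 (edgeR adjusted p = 0.246) and at -0.80 with SE 0.44 at day 45 (edgeR adjusted p = 0.562). miR-103 stood at -0.91 and -0.85 at day 25 and day 45 (edgeR adjusted p = 0.246 and 0.460), and miR-92a at -0.83 and -0.03 (edgeR adjusted p = 0.251 and 0.984). miR-16b, among the nearest in pattern to miR-451, was at 0.07 and 0.04 (edgeR adjusted p = 0.936 and 0.984). miR-23a, the partner for comparison, was at 0.71 at day 25 (edgeR adjusted p = 0.257) and at 0.52 at day 45 (edgeR adjusted p = 0.645), so a ratio of any of the 3 to miR-23a carries that difference too.

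Since miR-486 is also made in striated muscle, 7 muscle miRNAs were set beside it. Their summed level was 11.5 to 77.9 CPM in SCE and 9.68 to 23.9 CPM in healthy libraries at day 25, and 16.6 to 644 CPM in SCE and 10.8 to 56.3 CPM in healthy libraries at day 45, against at least 39501 CPM of miR-486 in every library. miR-206 was at 0 in 11 of 11 SCE and 5 of 5 healthy libraries at day 25, and miR-1 at 0 in 10 of 11 SCE and 4 of 5 healthy libraries. At day 45 miR-206 was at 0 in 10 of 11 SCE and 6 of 6 healthy libraries, and miR-1 in 8 of 11 SCE and 5 of 6 healthy libraries. By contrast, miR-133a, miR-208b and miR-499 were above 0 in every library. Their medians at day 25 were 12.65, 14.85 and 17.68 CPM in SCE and 7.745, 3.205 and 2.248 CPM in healthy libraries. Most of the highest sum was miR-133a, at 539.5 CPM in an SCE library at day 45 (group median 15.02 CPM). Of the 7 muscle miRNAs, 3 were tested in each status comparison and 0 were called. Values were higher in SCE cows for 2 of 3 at day 25 and 3 of 3 at day 45. CPM of different miRNAs cannot be compared as amounts of molecules, and the part of muscle in miR-486 was not tested.

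On library totals the median log2 fold change of all miRNAs was itself above 0 in SCE against healthy cows, at 0.88 at day 25 and 0.71 at day 45, so summed levels of other lists are given beside it. The 19 other red blood cell names had a median sum of 32920 CPM in SCE and 28340 CPM in healthy libraries at day 25, and of 36390 CPM in SCE and 29770 CPM in healthy libraries at day 45. The 8 platelet names had a median sum of 7736 CPM in SCE and 6337 CPM in healthy libraries at day 25, and of 8995 CPM in SCE and 8092 CPM in healthy libraries at day 45. The 6 names of a neutrophil and monocyte list summed to 5552 to 53870 CPM in SCE (median 41740) and 5860 to 40130 CPM in healthy libraries (median 10440) at day 25, with 5 of 6 higher in SCE cows after TMM scaling (median log2 fold change 0.21) and 0 called. At day 45 they summed to 20030 to 53890 CPM in SCE (median 28520) and 9251 to 37830 CPM in healthy libraries (median 15080), with 4 of 6 higher (median 0.46) and 0 called. A lymphocyte list of 6 summed to medians of 16630 CPM in SCE and 6142 CPM in healthy libraries at day 25, with 4 of 6 higher (median 0.37), and to 12900 CPM in SCE and 5527 CPM in healthy libraries at day 45, with 6 of 6 higher (median 0.56), and 0 called at either day. After TMM scaling the platelet list had 3 of 6 tested higher in SCE cows at day 25 and 1 of 7 at day 45. A liver list of 4 had 0 of 4 higher at day 25 and 3 of 4 at day 45, and summed to medians of 28320 CPM in SCE and 40560 CPM in healthy libraries at day 25, and of 26130 CPM in SCE and 41550 CPM in healthy libraries at day 45. The part of these cell types, and of the smaller totals of SCE libraries, in the values of the 3 miRNAs was not tested.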

How the data were processed

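The authors deposited 1 file per library with whole-number counts of reads per mature bovine miRNA. The submitters' processing notes name bcl2fastq 2.17.1.14, DESeq2 and the build UMD3.1, with no role for any of them. The table came from an aligner and counter not given in the sources used here. Libraries were TruSeq Small RNA libraries of 10 to 20 ng input, amplified for 13 or 16 cycles per the labels' protocols. No molecular identifiers are named, so intervals of shares cover counting error only. No other name had a total over all libraries within 1% of that of any of the 3 miRNAs together with a near-perfect correlation with it.

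Files were joined by name, and 33 of 34 were used. The 3 miRNAs and all lists were chosen with earlier results of these data known. Tests were run over all miRNAs with edgeR 4.0.16 (R 4.3.3, TMM, default filter on low counts, quasi-likelihood F test, Benjamini-Hochberg adjustment, threshold 0.05, two-sided) and checked on simulated counts. The simulated counts gave every miRNA the same dispersion between cows, so they do not show how the test behaves for miR-486. SE is the absolute log2 fold change divided by the square root of F. DESeq2 1.42.0 was an alternative. Log2 CPM used a prior count of 2 and ratios added 0.5 to each count. Ratios were tested over cows, and between days by exchanging days within cows. Labels give the cow, so the samplings of a cow are paired; deviations from group means over 406 miRNAs had a median r of 0.25 within 16 cows (-0.25 to 0.81, over 0.1 in 11). Named miRNAs were the 3, miR-23a, the 5 most similar to each, the 4 most abundant others of the red blood cell list, list members called, and defining markers of other lists. The correlations on library totals and those within 6 cows were added after the data were seen. A genome of the authors' build was not used here.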

Additional observations from a re-analysis of the deposited data

Results flagged for a closer look

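Healthy groups of 5 and 6 cows were searched for a library far from its group in 12 sets of values, and 2 were found. The threshold marks about 1 in 20 by chance only where values are normally distributed. Ratios were searched as log2 values but CPM without logs, so that rate cannot be taken to hold for the skewed CPM. At day 25, miR-144 in healthy cow 5 was at 504 CPM, while the next library was at 70.0 CPM, a gap of 0.917 of the whole range. At day 45, miR-144 over miR-451 in healthy cow 6 had a log2 ratio of -5.49, while the next library was at -4.78, a gap of 0.719 of the range.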

How the results depend on the processing

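Over all 18 fold changes and 15 ratio differences, no alternative other than leaving out a cow brought a call. With library totals alone the log2 fold change of SCE against healthy turned to 0.30 for miR-451 and 0.30 for miR-144 at day 25, to 0.36 for miR-451 at day 45, and to 0.25 for miR-451 and 0.023 for miR-144 with days summed, and that of day 45 against day 25 in SCE cows turned to 0.30 for miR-486. The median of all miRNAs between statuses then moved to 0.88 at day 25, 0.71 at day 45 and 0.77 with days summed, beside -0.05, 0.11 and 0.04 with TMM. With the replicate block (the cow), the day effect turned to 1.002 for miR-486 in SCE cows, to 0.21 for miR-451 in healthy cows and to -0.34 for miR-451 as the difference between statuses, where miR-486 moved to 1.20, and it changed no call. Without turning, library totals alone moved miR-486 to -0.99 at day 25 and -0.56 at day 45, and miR-144 to -0.11 at day 45. DESeq2, its size factors, scaling without the 3 miRNAs, no filter, 1 fit over all groups, and 1 or 2 added to counts turned no direction. Over all miRNAs edgeR called 1 at day 25 and 1 with days summed, against 48 and 64 with library totals alone and 14 and 15 by DESeq2. At day 25, 4 were called with DESeq2 size factors, 4 with scaling without the 3, 6 without a filter and 2 in 1 fit over all groups. With days summed, 2 were called with scaling without the 3 and 2 without a filter. At day 45, where edgeR called 0, library totals alone and DESeq2 each called 1, and the difference of day effects had 1 without a filter.

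When each cow was left out in turn, status values ran from -0.70 to 0.050 for miR-451 and from -0.53 to 0.57 for miR-144 at day 25, from -0.55 to 0.23 for miR-451 at day 45, and from -1.75 to -1.17 for miR-486 with days summed, where 1 of 17 fits called it. That fit, without SCE cow 7, called 10 of 419 miRNAs. Without turning, miR-486 ran from -2.46 to -0.88 at day 25 and from -1.62 to -0.78 at day 45, miR-144 from -1.04 to -0.32 at day 45, and with days summed miR-144 ran from -1.02 to -0.37 and miR-451 from -0.77 to -0.21. Day effects ran from -0.61 to 0.86 for miR-486 and from -0.34 to 0.42 for miR-451 in SCE cows, and from -0.78 to 0.50 for miR-486 and from -0.76 to 0.23 for miR-451 in healthy cows, while miR-144 kept its sign, from 0.029 to 0.42 in SCE and from 0.12 to 1.56 in healthy cows. Their difference ran from -0.62 to 1.05 for miR-486, from -0.41 to 0.74 for miR-451 and from -1.56 to 0.11 for miR-144. Ratio differences at day 25 ran from 2.15 to 3.17 for miR-451 over miR-486 and from 2.16 to 3.20 for miR-144 over miR-486, each called in 2 of 16 fits, and from -0.39 to 0.27 for miR-144 over miR-451. At day 45 they ran from 0.51 to 1.47, from 0.22 to 0.999 and from -0.49 to -0.087 for the same ratios in that order, and with days summed from 0.92 to 1.61, from 0.69 to 1.44 and from -0.38 to -0.061. Between days in SCE cows miR-144 over miR-451 ran from -0.021 to 0.57. The cause was not tested. Widths of the intervals, from 5 healthy cows at day 25, limit what can be seen. The p-values of comparisons with 1 value per cow measure spread between cows. Fits that held both libraries of a cow without a block, as in the main day comparisons and their difference, treated these libraries as independent.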
